A study of Mus musculus with 12 samples.

Results

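The enzymes of cholesterol synthesis and the regulators of their transcription were followed in the livers of 12 female mice through 7 genes, Hmgcs1, Idi1, Sqle, Lss, Cyp51, Insig1 and Srebf2. They were taken by name as enzymes, a regulator and the transcription factor of the sterol pathway, with no threshold on their values, and all 7 were among the 22557 genes of the deposited table and the 17380 tested. The livers came from age-matched mice with a knockout (KO) of Mtdh or wild type (WT) for it, and either carried a mammary tumour grown from Py8119 cells, a mouse mammary cancer line, as an allograft or carried none. Mtdh encodes metadherin, a protein studied in tumour growth and metastasis, and the title of the series names liver lipid metabolism and CD8+ T cells as what host MTDH acts on. The 4 groups, KO_tumor, WT_tumor, KO_no_tumor and WT_no_tumor, held 3 livers each, from different mice. The labels name the KO by gene alone, and neither allele, strain, age nor the cells that lack Mtdh are given in the sources used here. Whole liver, with all its cell types, was ground, and ribosomal RNA was depleted. A lower value can therefore come from fewer cells of a type or from less RNA per cell, which cannot be told apart.

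Hepatocytes make cholesterol from acetyl-CoA through mevalonate, isoprenoid units and squalene. The transcription factor SREBP2, encoded by Srebf2, switches on nearly all genes of this route when sterols in the endoplasmic reticulum run low. When sterols are plentiful, INSIG proteins hold SREBP2 and its escort SCAP in that membrane, so the factor is not cut and does not reach the nucleus. Hmgcs1 encodes the synthase that makes HMG-CoA, Idi1 the isomerase that interconverts the isoprenoid building blocks, and Sqle the squalene monooxygenase that makes squalene epoxide. Lss encodes lanosterol synthase, which closes the sterol rings, and Cyp51 the demethylase that acts on lanosterol. Insig1 is both a target of SREBP2 and a brake on it, and Srebf2 is itself a target of its product.

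Promoters of 4 of the genes are shown because they are where SREBP2 is known to act with the factor NF-Y, which reads the CCAAT box. They include those of Hmgcs1 and Idi1, the pair whose values did not overlap between KO and WT livers with a tumour. The others are those of Insig1, whose difference there had the other sign, though not in every fit, and Srebf2, the factor's own gene. Each of the 4 is the 250 bases before the start of the gene in the RefSeq promoter table of build GRCm38.p6. All are given 5′ to 3′ on the gene's own strand. Hmgcs1 is taken from chr13:119690101-119690350 on the plus strand, Idi1 from chr13:8885356-8885605 on the plus strand, Insig1 from chr5:28071162-28071411 on the plus strand and Srebf2 from chr15:82147019-82147268 on the plus strand. Capitals mark CCAAT on either strand (ATTGG where it lies on the other strand) and both forms of the sterol regulatory element searched, the core CACCCCA and the longer TCACNCCAC, where N is any base.
Hmgcs1: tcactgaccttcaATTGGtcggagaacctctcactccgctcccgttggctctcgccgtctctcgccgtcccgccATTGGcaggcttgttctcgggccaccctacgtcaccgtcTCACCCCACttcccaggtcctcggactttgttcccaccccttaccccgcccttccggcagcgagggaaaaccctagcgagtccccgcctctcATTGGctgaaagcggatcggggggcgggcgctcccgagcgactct
Idi1: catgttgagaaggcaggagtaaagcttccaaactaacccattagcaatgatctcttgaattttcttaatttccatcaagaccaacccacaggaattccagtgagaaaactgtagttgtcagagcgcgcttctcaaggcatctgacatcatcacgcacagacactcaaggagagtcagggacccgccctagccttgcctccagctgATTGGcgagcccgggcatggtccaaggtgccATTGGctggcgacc
Insig1: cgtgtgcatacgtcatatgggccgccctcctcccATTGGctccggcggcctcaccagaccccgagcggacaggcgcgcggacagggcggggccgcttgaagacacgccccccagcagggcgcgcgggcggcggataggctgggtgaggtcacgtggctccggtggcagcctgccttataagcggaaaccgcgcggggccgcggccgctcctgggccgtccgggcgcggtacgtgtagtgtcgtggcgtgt
Srebf2: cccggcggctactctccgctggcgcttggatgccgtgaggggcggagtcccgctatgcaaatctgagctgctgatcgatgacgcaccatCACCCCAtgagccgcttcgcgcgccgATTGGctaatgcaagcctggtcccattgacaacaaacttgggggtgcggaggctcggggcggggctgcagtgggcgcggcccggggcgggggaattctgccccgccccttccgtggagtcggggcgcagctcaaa

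RefSeq held a promoter for 6 of the 7 genes, all but Sqle, and letters were searched on both strands. The core CACCCCA was in 2 of these 6, starting 136 bases before the start of Hmgcs1 and 161 bases before that of Srebf2, against 6.69% of the 32851 promoters of the same length. TCACNCCAC overlapped the core in Hmgcs1, as TCACCCCAC, and was in none of the other 5, against 1.05% of all promoters. CCAAT was in 6 of 6, at 3 places in Hmgcs1 and 2 in Idi1, against 33.9% of all promoters, and the GC box GGGCGG was in 6 of 6, against 32.7%. The E-box CACGTG was in Insig1 alone of the 6, against 6.02% of all. These matches describe letters in the windows and were not tested as binding sites.

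The values, called normalized reads here, are reads scaled by the size factor of their library and not by gene length. Depth was estimated at 25720000 to 43030000 reads for 11 libraries and at 12720000 for KO_tumor replicate 1. That library also had a mean correlation of 0.831 with the rest, against 0.887 to 0.926. Small nuclear RNAs made up 5.32% of the signal of KO_no_tumor replicate 3, against at most 2.05% elsewhere. One read was worth 0.65 to 2.47 normalized reads, far below every value of the 7 genes. Mtdh had 323.4 to 1063 normalized reads in the 6 KO livers and 3954 to 5702 in the 6 WT livers, which matches the genotype labels. All 6 hepatocyte markers searched were present, and Alb, the main plasma protein gene of hepatocytes, took 6.12% to 12.3% of the signal. The 7 genes took 0.2% to 0.568% of the signal.

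No gene of the 7 passed the test in any of 7 comparisons. The test was limma on log2(value + 1), with p-values adjusted by the Benjamini-Hochberg method over all 17380 genes and a threshold of 0.05. With that test 0 of 7 genes were called for KO against WT without a tumour, where 0.00575% of all genes were, and 0 of 7 for KO against WT with a tumour, where 0.023% were. It called 0 of 7 for tumour against none in WT livers (0.679% of all genes) and 0 of 7 for tumour against none in KO livers (0% of all genes). It called 0 of 7 for the genotype by tumour interaction (0% of all genes), for KO against WT averaged over tumour states (0.0115%) and for tumour against none averaged over genotypes (1.06%). At an unadjusted p below 0.05 the counts in this order were 0, 2, 1, 0, 0, 2 and 2 of the 7. The shares of all genes were 1.93%, 14.4%, 8.67%, 12.7%, 4.7%, 10.3% and 15.1%. Without both KO_tumor replicate 1 and KO_no_tumor replicate 3 the count called was also 0 of 7 in each comparison. With limma's library weights 2 of 7 passed for KO against WT with a tumour, Hmgcs1 at -0.75 (adjusted p of 0.0492) and Sqle at -0.86 (0.0496), where those weights called 813 genes higher and 851 lower in all. What the livers did show was that the 7 genes varied between mice by 2.52 to 4 times and did so largely together. WT_no_tumor replicate 2 was the lowest liver for every gene but Insig1. Without it, the median Pearson r between pairs of the genes went from 0.775 to 0.754, and from 0.818 to 0.594 after subtracting group means.

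Hmgcs1 (ENSMUSG00000093930, chr13:120151915-120169797 in build mm39, plus strand) had the widest gap of the 7 genes between genotypes in livers with a tumour. It had 30630, 28930 and 31600 normalized reads in KO_tumor livers and 49830, 37810 and 74760 in WT_tumor livers. In livers without a tumour it had 21850, 24680 and 22810 in KO_no_tumor and 40420, 18890 and 40470 in WT_no_tumor. The KO livers lay close together within each tumour state, and every KO_tumor liver was below every WT_tumor liver, while the groups without a tumour overlapped through WT_no_tumor replicate 2. Group means were 30390 ± 1349 in KO_tumor, 54130 ± 18850 in WT_tumor, 23110 ± 1437 in KO_no_tumor and 33260 ± 12450 in WT_no_tumor livers (SD, n = 3 each). KO against WT with a tumour gave a log2 fold change of -0.78 ± 0.31 (SE), with a 95% interval of -1.45 to -0.10 and an adjusted p of 0.292 from limma. Without a tumour it was -0.44 ± 0.31 (-1.12 to 0.23, limma adjusted p of 1). Tumour against none gave 0.73 ± 0.31 in WT livers (0.06 to 1.40, adjusted p of 0.523) and 0.40 ± 0.31 in KO livers (-0.28 to 1.07, adjusted p of 0.568), also from limma. Each of these WT_tumor values enters both the genotype and the tumour comparison.

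Idi1 (ENSMUSG00000058258, chr13:8935537-8942488 in mm39, plus strand), further down the mevalonate branch, had group means in the same order. It had 11960, 18280 and 17120 normalized reads in KO_tumor livers and 21030, 21360 and 32020 in WT_tumor livers. Values were 13350, 14550 and 13290 in KO_no_tumor and 21030, 10180 and 22780 in WT_no_tumor livers. As for Hmgcs1, no KO_tumor liver reached a WT_tumor liver, and WT_no_tumor replicate 2 was the lowest of the 12. The lowest of the KO_tumor livers was replicate 1, the library of least depth. Means were 15780 ± 3364 in KO_tumor, 24800 ± 6251 in WT_tumor, 13730 ± 708.7 in KO_no_tumor and 18000 ± 6825 in WT_no_tumor livers (SD, n = 3 each). KO against WT with a tumour gave -0.65 ± 0.30 on the log2 scale (-1.28 to -0.01), with a limma adjusted p of 0.342, and without a tumour -0.31 ± 0.30 (adjusted p of 1). Tumour against none gave 0.52 ± 0.30 in WT livers (limma adjusted p of 0.700) and 0.18 ± 0.30 in KO livers (0.797). Of all genes tested, 9.8% had every KO_tumor liver below every WT_tumor liver, the pattern of Hmgcs1 and Idi1 and of none of the other 5.

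Sqle (ENSMUSG00000022351, chr15:59186926-59203042 in mm39, plus strand), a much-studied control step of the later route, had 6347, 3146 and 3694 normalized reads in KO_tumor and 7227, 3952 and 7064 in WT_tumor livers. Without a tumour it had 3052, 2212 and 3558 in KO_no_tumor and 5834, 1805 and 4306 in WT_no_tumor livers. The groups overlapped in every comparison, and it had the greatest ratio of highest to lowest liver, 4-fold between WT_tumor replicate 1 and WT_no_tumor replicate 2. KO against WT with a tumour gave a log2 fold change of -0.48 ± 0.39 (-1.32 to 0.36, limma adjusted p of 0.553). Tumour against none gave 0.72 ± 0.39 in WT livers (-0.12 to 1.56, limma adjusted p of 0.685) and 0.54 ± 0.39 in KO livers (-0.30 to 1.38, adjusted p of 0.535). Sqle, Srebf2 and Mtdh lie on the same chromosome, with Mtdh at chr15:34082840-34145771 in mm39.

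Lss (ENSMUSG00000033105, chr10:76367422-76392973 in mm39, plus strand) had 4488, 2546 and 2368 normalized reads in KO_tumor and 3132, 2563 and 5839 in WT_tumor livers. It had 3061, 1972 and 2466 in KO_no_tumor and 3724, 1498 and 3268 in WT_no_tumor livers. The group ranges overlapped throughout, and 1 liver stood highest in each tumour group, replicate 1 in KO_tumor and replicate 3 in WT_tumor. KO against WT gave -0.26 ± 0.37 on the log2 scale with a tumour (limma adjusted p of 0.743) and -0.10 ± 0.37 without. Cyp51 (ENSMUSG00000001467, chr5:4131145-4154747 in mm39, minus strand), the next enzyme, had 8295, 6419 and 6337 in KO_tumor and 8003, 6309 and 9673 in WT_tumor livers. It had 5402, 4763 and 6060 in KO_no_tumor and 8379, 3746 and 6669 in WT_no_tumor livers. Within KO livers every one with a tumour was above every one without, as for Hmgcs1 and for 7.34% of all genes, and within WT livers the ranges overlapped. Tumour against none gave 0.37 ± 0.27 in KO livers (-0.20 to 0.94, limma adjusted p of 0.529) and 0.41 ± 0.27 in WT livers (-0.16 to 0.98, adjusted p of 0.759). Akap9 overlaps Cyp51 on the opposite strand, with a mean equal to 27% of that of Cyp51, and the labels do not say whether counting used strand.

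**Figure D1:**
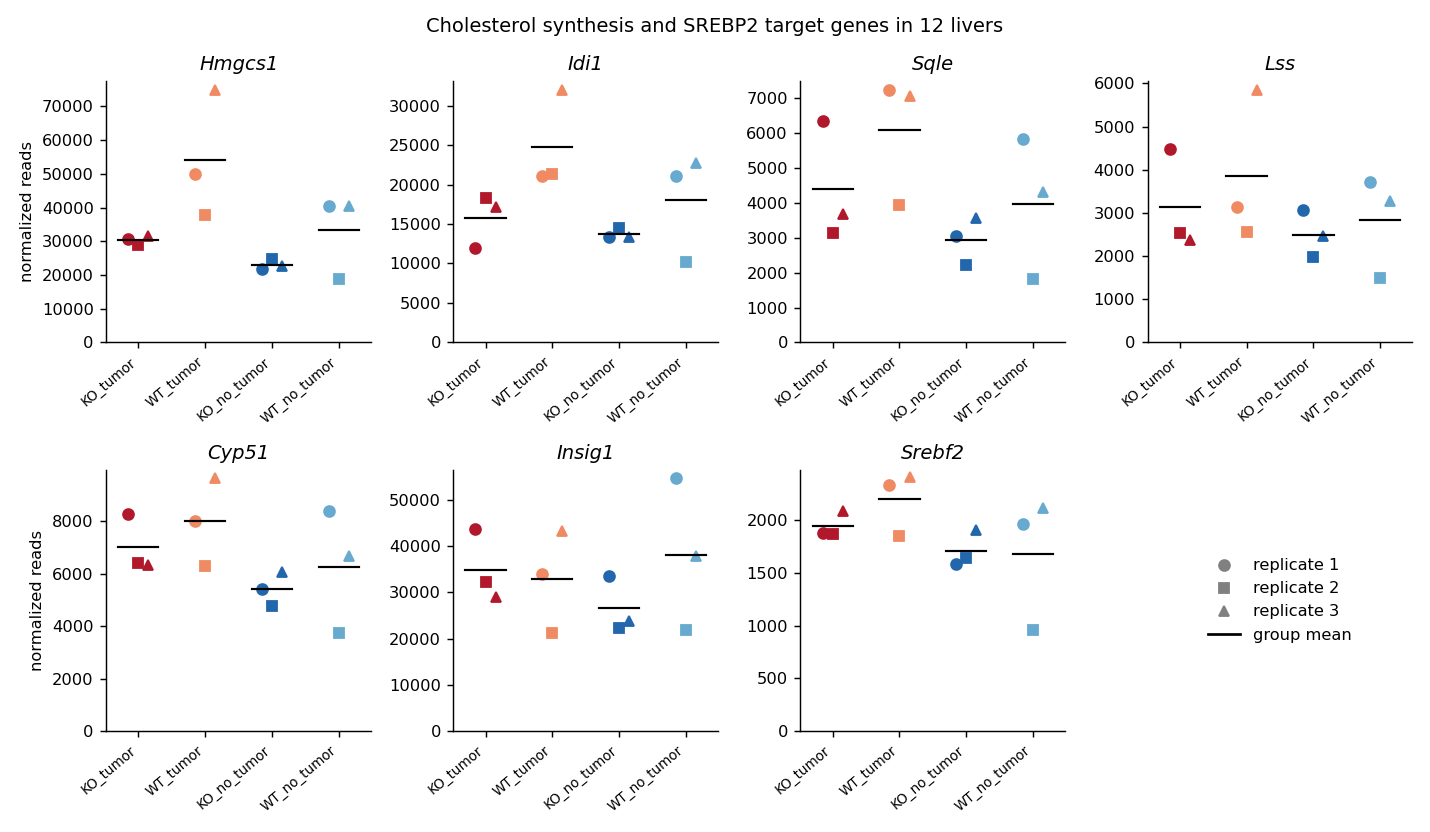
Normalized reads of the 7 genes in each of the 12 livers, with groups along the x axis, a marker shape per replicate number and a bar at each group mean. For Hmgcs1 and Idi1 all 3 KO_tumor livers lie below all 3 WT_tumor livers, and WT_no_tumor replicate 2 is the lowest of the 12 livers for every gene but Insig1.

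Insig1 (ENSMUSG00000045294, chr5:28276361-28283661 in mm39, plus strand) differed from the enzymes in the sign of its value for KO against WT with a tumour. It had 43600, 32200 and 28960 normalized reads in KO_tumor and 34000, 21170 and 43150 in WT_tumor livers, and 33590, 22290 and 23740 in KO_no_tumor and 54810, 21870 and 37740 in WT_no_tumor livers. Every group overlapped every other, and the highest liver was WT_no_tumor replicate 1 and the lowest WT_tumor replicate 2. KO against WT gave 0.13 ± 0.35 with a tumour (-0.62 to 0.88, limma adjusted p of 0.877) and -0.45 ± 0.35 without (-1.20 to 0.30). The difference between the values with and without a tumour, the interaction, was 0.58 ± 0.49 (-0.48 to 1.64, limma adjusted p of 0.859). Insig1 was thus the single gene of the 7 with a positive interaction, and for the others it was -0.34 to -0.04. Leaving out 1 library at a time, the interaction of each of the others changed sign in 1 to 5 of 12 runs.

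Srebf2 (ENSMUSG00000022463, chr15:82031382-82089581 in mm39, plus strand) varied least. It had 1884, 1867 and 2092 normalized reads in KO_tumor and 2338, 1851 and 2407 in WT_tumor livers, and 1582, 1646 and 1906 in KO_no_tumor and 1961, 955.6 and 2114 in WT_no_tumor livers. All groups overlapped in all comparisons, and the lowest value came again from WT_no_tumor replicate 2. KO against WT gave -0.17 ± 0.26 on the log2 scale with a tumour (-0.72 to 0.38, limma adjusted p of 0.769) and 0.11 ± 0.26 without (-0.44 to 0.66). Tumour against none gave 0.47 ± 0.26 in WT livers (-0.09 to 1.01, limma adjusted p of 0.687) and 0.19 ± 0.26 in KO livers (-0.36 to 0.74, adjusted p of 0.748). These are transcript values, and the cut nuclear form of SREBP2 was not measured.

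Averaged over tumour states, KO against WT gave values below 0 for all 7 genes, the lowest being -0.61 ± 0.22 for Hmgcs1 (-1.09 to -0.13, limma adjusted p of 0.421) and -0.48 ± 0.21 for Idi1 (adjusted p of 0.471). The median of the 7 was -0.18, against -0.08 over all genes, of which 43.3% were above 0. It was -0.056 without WT_no_tumor replicate 1, -0.384 without WT_no_tumor replicate 2 and -0.396 with library weights. In livers with a tumour alone it was -0.26, with -0.51 without WT_tumor replicate 2 and -0.10 without WT_tumor replicate 3. In livers without a tumour it was -0.31, with -0.67 without WT_no_tumor replicate 2 and 0.05 without WT_no_tumor replicate 1. Averaged over genotypes, tumour against none gave values above 0 for all 7, led by Sqle at 0.63 ± 0.28 (0.04 to 1.22, limma adjusted p of 0.306) and Hmgcs1 at 0.56 ± 0.22 (0.09 to 1.04, adjusted p of 0.246). Here the median was 0.37, against -0.04 over all genes, of which 46.8% were above 0, and it was 0.17 without WT_no_tumor replicate 2, where Insig1 was at -0.068. In WT livers alone the median for tumour against none was 0.47, and 0.10 without that library. In KO livers it was 0.37, and lay between 0.24 and 0.48 under every alternative run. The interaction had a median of -0.18, and 0.24 without WT_no_tumor replicate 2, a change of sign.

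**Figure D2:**
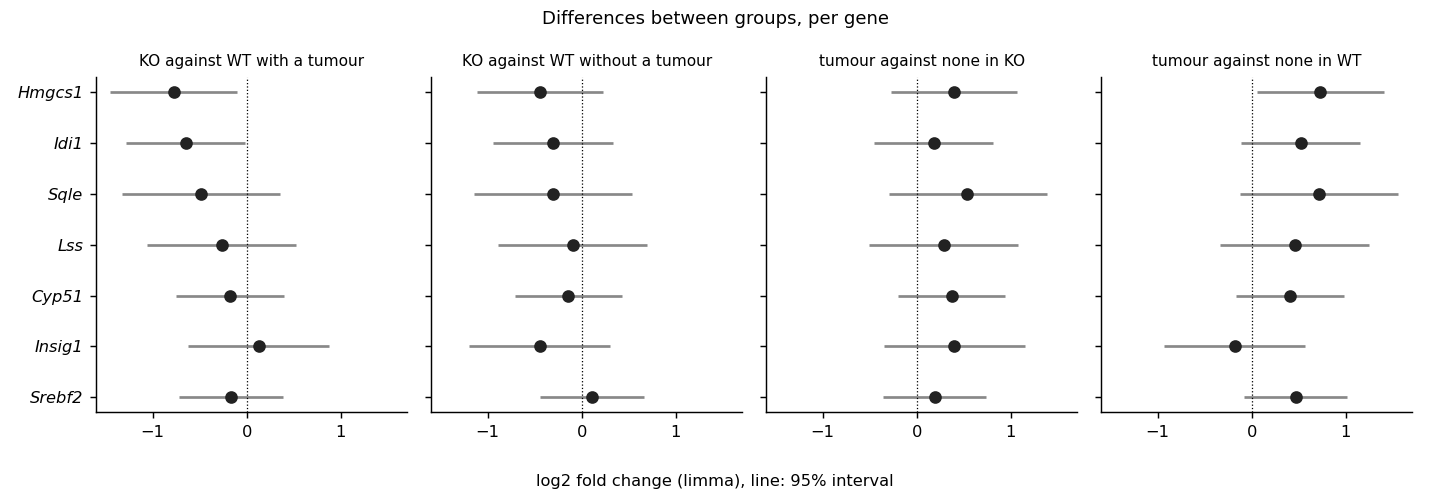
Log2 fold changes of the 7 genes (points) with 95% intervals from limma (lines) in the 4 comparisons of pairs of groups, tumour livers and genotypes named above each panel. Intervals that leave out 0 are those of Hmgcs1 and Idi1 for KO against WT with a tumour and of Hmgcs1 for tumour against none in WT, and no adjusted p is below 0.05.

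Sums of cell type markers also differed by value between livers with and without a tumour. The summed level of 6 stellate cell and fibroblast markers was 13300 to 16260 normalized reads in KO_tumor, 17260 to 21440 in WT_tumor, 10570 to 12220 in KO_no_tumor and 10110 to 12770 in WT_no_tumor livers. The 5 sinusoidal endothelial markers summed to 7833 to 14130, 7135 to 8331, 5568 to 6295 and 4131 to 6065 in the same order of groups. The 6 hepatocyte markers summed to 2585000 to 4292000, 3156000 to 3629000, 2291000 to 2754000 and 2238000 to 2507000. All of these markers were above 0 in every liver. For these 3 lists the sums stood higher in livers with a tumour than without in both genotypes, with an overlap for hepatocyte markers in KO livers alone. A sum follows its most abundant genes. Alb alone had 2070000 to 3870000 normalized reads over the livers, most of the hepatocyte sum, and Pecam1 of the endothelial list had 1075 to 9256. Single markers are not compared between groups here. The 5 red cell markers summed to 1681 to 6503, 4833 to 7368, 1536 to 3252 and 1596 to 3012, and the 6 neutrophil markers to 41.92 to 269.1, 289.4 to 655.5, 76.98 to 116.2 and 50.52 to 187.1. The part of any of these cells in the values of the 7 genes was not tested. The 5 mammary epithelial markers summed to at most 99.61 in livers with a tumour, against 85.83 to 119.7 in livers without.

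The most regular feature of the 7 genes was that a liver high in one was mostly high in the others. Over the 12 livers the 21 pairs of genes had a Pearson r of 0.431 to 0.966, with a median of 0.775, and a Spearman rho of 0.315 to 0.902, with a median of 0.797. The genes were chosen as members of a single pathway and the livers share 4 groups, so these r and rho are given as a description with no p. Sqle and Cyp51 were the closest pair (r = 0.966), and Insig1 and Idi1 the least close (r = 0.431). Leaving out the 2 livers farthest from the median of the first gene gave a median r of 0.705 and a lowest r of -0.002, for Idi1 and Lss. This narrows the range of the first gene, so whether a relation rests on those livers cannot be told from it. Idi1 and Lss had a rho of 0.531 over the 12 livers and an r of 0.523 within groups, both with those livers included. Within groups, after subtracting group means, r was 0.425 to 0.958 with a median of 0.818. Without WT_no_tumor replicate 2 the within-group median was 0.594 and the lowest pair -0.338, against medians of 0.792 to 0.871 without any other single library.

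WT_no_tumor replicate 2 had 35.6% to 49.8% of the mean of the other 2 livers of its group for the 7 genes, lowest for Sqle and highest for Cyp51. It lay 0.66 to 0.98 below its group mean on the log2 scale for all 7. WT_tumor replicate 3 lay above its group mean for all 7, by 0.14 for Srebf2 to 0.70 for Lss, and WT_tumor replicate 2 lay below for all 7. No KO liver lay on the same side for all 7. In depth, 27990000 reads, and in mean correlation with the other libraries, 0.896, WT_no_tumor replicate 2 was within the range of the rest. Its summed stellate and endothelial markers, 10110 and 4131 normalized reads, were the lowest of the 12 livers, and their part in its low values was not tested. The spread of log2 values between livers was smaller in KO_no_tumor than in WT_no_tumor for 7 of 7 genes, with median SDs of 0.17 and 0.64. Of all genes 46.8% had the smaller SD in KO_no_tumor, and of the 3769 genes with a mean of at least 1000, as all 7 had, 52.4% did. Without WT_no_tumor replicate 2 this held for 3 of 7, with a median SD of 0.13 in WT_no_tumor. With a tumour the SD was smaller in KO_tumor than in WT_tumor for 6 of 7, with medians of 0.31 and 0.49. It was smaller for 34.4% of all genes and for 47.3% of those with a mean of at least 1000. Without KO_tumor replicate 1, the library of least depth, it was smaller for 67.9% of all genes and for 7 of the 7. Without WT_tumor replicate 2 it was smaller for 25.2% of all genes and for 3 of the 7.

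**Figure D3:**
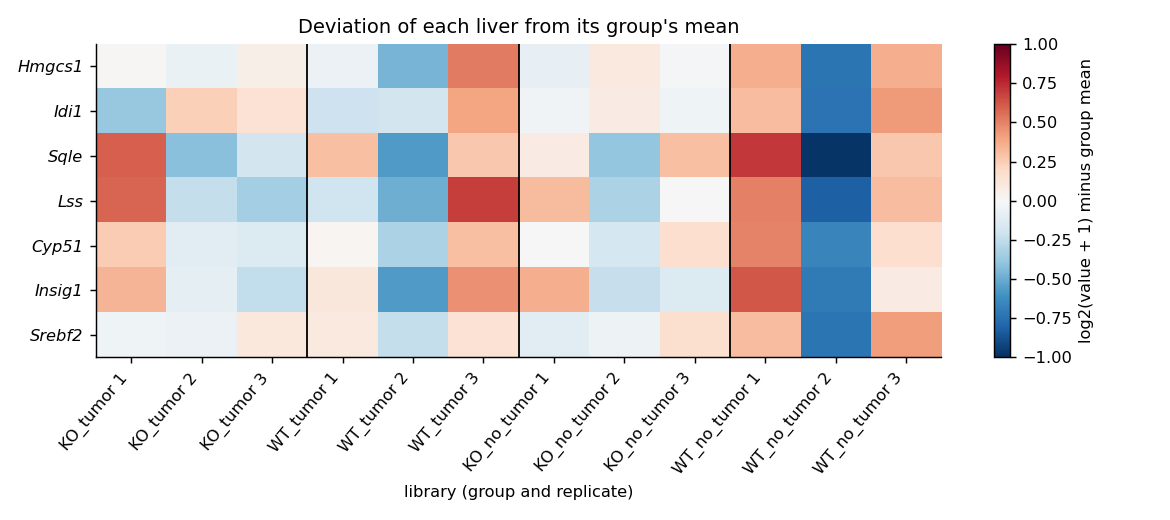
Deviation of each liver from its group's mean, on the log2(value + 1) scale (colour), for the 7 genes down the page and the 12 livers across it, with lines between groups. The column of WT_no_tumor replicate 2 is blue throughout, at -0.98 to -0.66, and those of WT_no_tumor replicates 1 and 3 and WT_tumor replicate 3 are red throughout.

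Genes most like the 7 were sought among 12260 other tested genes with a mean of at least 50, by Pearson r with the mean of the 7 genes' z-scores over the 12 livers. The closest was Gm46223, annotated as a processed pseudogene (r = 0.943), followed by Uhrf1bp1 (0.911), Sh3bp5 (0.886) and Col4a2 (0.859). Next came Mvd, the decarboxylase just before Idi1 in the route (0.851), then Irak4 (0.849), Stab1 (0.846), Synpo (0.841) and Glg1 (0.835). The tenth was Msmo1, the sterol methyl oxidase after Cyp51 (0.831), so 2 of the 10 were enzymes of the same route. These r share libraries and depth and are a description. Leaving out 1 library at a time kept 3 to 10 of these 10 among the first 10. After subtracting group means, 7 of the first 10 were small nucleolar RNAs, with Cenpb (0.973), Rpl13 (0.945) and Mvd (0.938) the others. None of these 10 was still among the first 10 without WT_no_tumor replicate 2.

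The other 17 enzymes of cholesterol synthesis had a median r with the 7 of 0.357 over the 12 livers and of 0.679 within groups, where 70.6% reached 0.5. Among all genes compared, 9.72% reached 0.5 within groups, with a median of -0.03. The 10 other SREBP2 targets had a within-group median of 0.637. The 12 genes of fatty acid synthesis, the branch driven mainly by SREBP1c and ChREBP, had a within-group median of 0.765 and one of 0.213 over the 12 livers. Genes for sterol esters and lysosomal sterol had -0.18 within groups, and those of isoprenoid branches 0.02. By its within-group value the fatty acid list was thus above both the enzymes and the targets of the sterol pathway. Summed stellate cell and fibroblast markers, on a log2 scale, had an r of 0.744 with the 7 genes' mean z-score over the 12 livers and of 0.715 within groups, and summed endothelial markers had 0.545 and 0.677. These are r of a sum, an unlike measure to a median of single-gene r. Over the 12 livers, 47.1% of the other enzymes, 40% of the other targets and 0% of the fatty acid genes reached 0.5. Among all genes compared, 7.03% did. The likeness was therefore shared with the fatty acid list within groups, and less so over the 12 livers. Differences between lists were not tested. For the lists, r is not given without WT_no_tumor replicate 2. That liver had the lowest mean z-score both of the fatty acid list (-1.49) and of the 7 genes (-1.80). How far the shared likeness rests on it was not tested.

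Of 23 enzymes listed for cholesterol synthesis, 22 were analysed here and 0 passed limma's test in any comparison. For KO against WT with a tumour 10 of 22 were above 0 and 12 below, where 42.8% of all genes were above 0, with a median of -0.16 against -0.12 over all genes. Of the 22, 5 had an unadjusted p below 0.05, where 14.4% of all genes did. The lowest values there were -1.27 ± 0.47 for Lbr (limma adjusted p of 0.261), a sterol reductase that is also the lamin B receptor, and those of Hmgcs1 and Idi1. The highest were 1.68 ± 0.51 for Pmvk, phosphomevalonate kinase (limma adjusted p of 0.204), 0.78 ± 0.30 for Acat2, the acetoacetyl-CoA thiolase at the head of the route (0.268), and 0.52 ± 0.34 for Nsdhl (0.466). Pmvk had 1359, 425.4 and 407 normalized reads in KO_tumor and 166.4, 376.6 and 112.9 in WT_tumor livers, with the highest value in the library of least depth. Neighbouring steps of the route thus had values of both signs, and the 17 enzymes other than Hmgcs1, Idi1, Sqle, Lss and Cyp51 had a median of 0.12.

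For tumour against none averaged over genotypes 16 of the 22 enzymes were above 0, with a median of 0.38 against -0.04 over all genes. The highest were Mvk, mevalonate kinase, at 0.74 ± 0.39 (limma adjusted p of 0.396), Sqle, and Mvd at 0.61 ± 0.48 (0.561). Among the lowest were Lbr at -0.56 ± 0.33 (limma adjusted p of 0.449), and Tm7sf2, the other sterol reductase of that step, at -0.47 ± 0.21 (0.306). For KO against WT without a tumour 6 of the 22 were above 0, with a median of -0.09, Hmgcs1, Lbr at -0.37 ± 0.47 and Msmo1 at -0.35 ± 0.25 the lowest, and Tm7sf2 at 0.47 ± 0.30 and Dhcr7 at 0.11 ± 0.38 among the highest (limma adjusted p of 1 for each).

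**Figure D4:**
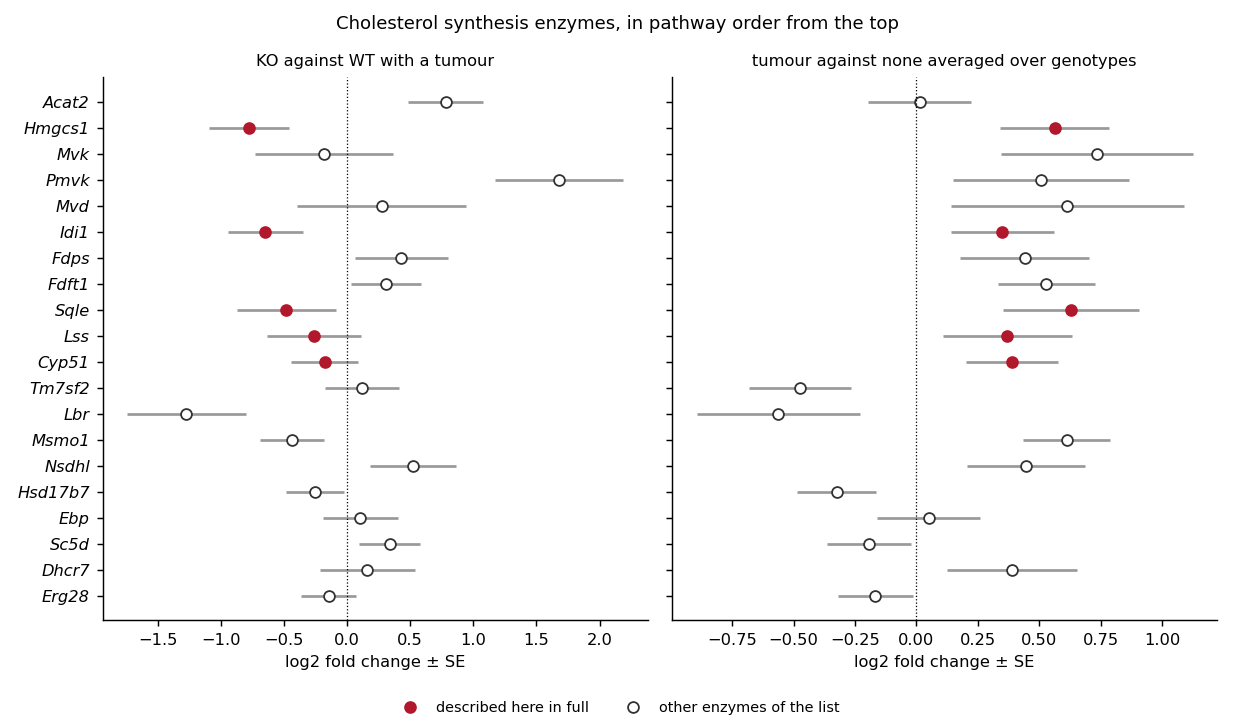
Log2 fold changes ± SE from limma of 20 cholesterol synthesis enzymes in the order of the route, for KO against WT with a tumour and for tumour against none averaged over genotypes. Filled points are Hmgcs1, Idi1, Sqle, Lss and Cyp51, all below 0 in the first panel and above 0 in the second, while the open points of the other enzymes lie on both sides of 0.

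Genes that control SREBP processing did not pass the test either. For KO against WT with a tumour, Scap, the escort of SREBP2, had 0.61 ± 0.31 (limma adjusted p of 0.382) and Mbtps2, the second protease that frees it, had -0.62 ± 0.24 (0.271). Mbtps1, the first protease, had 0.15 ± 0.21, Insig2, the partner of Insig1, had -0.13 ± 0.33, and Srebf1, the gene of SREBP1, had 0.26 ± 0.40 (limma adjusted p of 0.745 to 0.871). The ubiquitin ligase genes Rnf145 and Rnf139 had 0.37 ± 0.21 and 0.11 ± 0.17 (limma adjusted p of 0.412 and 0.757). Values for tumour against none in WT livers were -0.28 ± 0.31 for Scap, 0.35 ± 0.33 for Insig2 and 0.49 ± 0.40 for Srebf1, with limma adjusted p of 0.848 to 0.917. The 10 other SREBP2 targets had 8 values above 0 and 2 below for KO against WT with a tumour, with a median of 0.46, and 0 were called.

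Fatty acid synthesis genes had values of the other sign in livers with a tumour. KO against WT there gave values above 0 for 12 of 12, against 42.8% of all genes, with a median of 1.41 against -0.12 over all genes. An unadjusted p below 0.05 was reached by 8 of the 12, against 14.4% of all genes, and 0 were called by limma. The 7 sterol genes had 1 above 0 and 6 below, with a median of -0.26. In mean z-scores, the fatty acid list lay at 0.82, 0.70 and 0.25 in KO_tumor and at -0.67, -1.19 and -0.87 in WT_tumor livers, which did not overlap. The 7 sterol genes lay at 0.43, -0.13 and -0.10 in KO_tumor and at 0.76, -0.10 and 1.56 in WT_tumor livers, which did. WT_no_tumor replicate 2 was lowest for both, at -1.49 for the fatty acid list and -1.80 for the sterol genes.

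**Figure D5:**
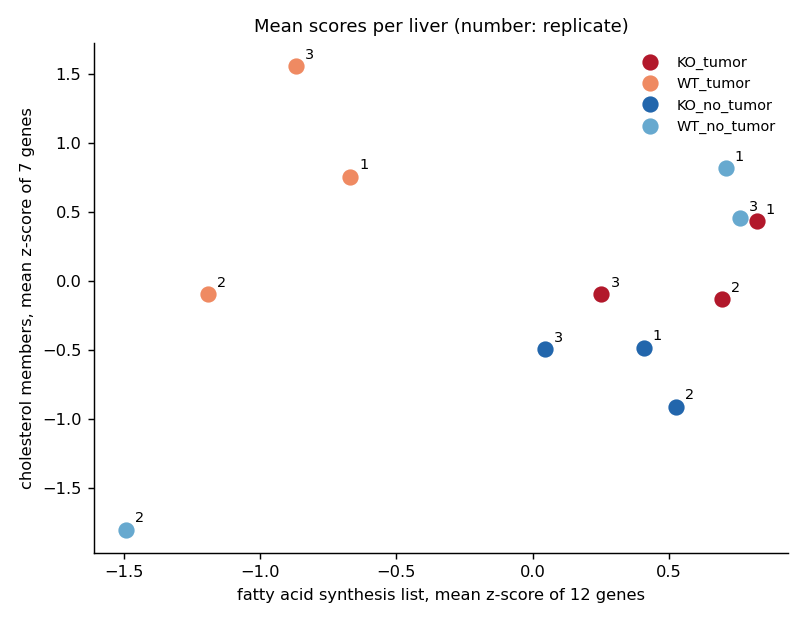
Mean z-score of 12 fatty acid synthesis genes (x axis) against that of the 7 sterol genes (y axis) in each liver, coloured by group and numbered by replicate. The 3 WT_tumor livers lie to the left with -1.19 to -0.67 on the x axis and -0.10 to 1.56 on the y axis, and WT_no_tumor replicate 2 is alone at the lower left.

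One gene of the 8 sterol and lipid lists passed the test in any comparison, that of tumour against none averaged over genotypes, where 1.06% of all genes did. The lists held 22, 10, 10, 9, 7, 10, 12 and 4 tested genes, so 1 call among them is near the share over all genes. Nceh1, a neutral cholesterol ester hydrolase, had 517.8, 1625 and 1424 normalized reads in KO_tumor and 1015, 938.3 and 808 in WT_tumor livers. It had 2944, 2099 and 3476 in KO_no_tumor and 2418, 3050 and 2166 in WT_no_tumor livers. Every liver with a tumour was below every liver without, in both genotypes. The share of all genes with that pattern was not counted. Nceh1 is named for passing the test on these same values, so the pattern adds no support to it. It fell by 1.42 ± 0.25 on the log2 scale for tumour against none averaged over genotypes, with a limma adjusted p of 0.0146. The adjusted p was 0.0553 without KO_no_tumor replicate 1 and 0.0506 without WT_no_tumor replicate 2. In single genotypes the change was -1.46 ± 0.35 in WT livers (limma adjusted p of 0.0867) and -1.39 ± 0.35 in KO livers (0.324).

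Levels can be compared between genes only per length, here normalized reads per kilobase of all exons joined, with exons from GENCODE M21. On that scale the mean level over the 12 livers was 10700 for Insig1, 7667 for Hmgcs1 and 5158 for Idi1. It was 1511 for Cyp51, 784.3 for Sqle, 285.3 for Lss and 262.2 for Srebf2. The joined exons spanned 3093 bases for Insig1, 7184 for Srebf2 and 10787 for Lss. A gene whose liver transcripts use only part of its joined exons is understated on this scale. The ranges over livers of Lss, 138.9 to 541.3, and of Srebf2, 133 to 335.1, overlapped in part, as did those of Insig1, 6845 to 17720, and Hmgcs1, 4111 to 16270. The level of Idi1, 2905 to 9135, lay above that of Cyp51, 848.4 to 2191, in every liver.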

How the data were processed

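RNA was sequenced from whole liver of 12 female mice, with the 3 replicates of each group taken from different mice, per the labels. The deposited values are a normalized signal on a linear scale: by the name of the deposited table the authors used DESeq2, which scales each library by a size factor. The submitters' processing notes name STAR 2.7.8a, Partek, DESeq2 and build mm39, and no source used here gives the counter, annotation or strand setting. Depth was estimated from the smallest step that low values repeat. Many low values were fractions of that step, so no count model was used. Every column of the table was matched to a sample.

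A gene was tested if 3 libraries or more had a value of 10 or more. The test was limma 3.58.1 in R 4.3.3 (eBayes with a trend) on log2(value + 1), which understates changes of low genes, in a single fit of the 4 group means to the 12 libraries. P-values were two-sided. The members and gene lists were chosen with earlier results of these data known. The genes named are the 7 members, the 3 highest and 3 lowest cholesterol synthesis enzymes in the comparisons described, the SREBP processing genes, list genes that passed the test, and the 10 genes most like the members. Pmvk was given by library after its values were seen. Some genes that this rule names are not reported here. Alternatives were another pseudocount (10), testing without the filter, rescaling to the same total, quantile normalization, fitting a comparison's libraries alone, robust eBayes, library weights, a replicate block, protein-coding genes alone, and leaving out each library or both that stood apart. Those for the spread, for Nceh1 and for correlations were added after seeing the data. The test was checked on simulated data. Tables were handled in Python 3.11.15 with pandas 2.3.3, numpy 2.4.6 and scipy 1.17.1, and figures drawn with matplotlib 3.10.9.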

Additional observations from a re-analysis of the deposited data

How the results depend on the processing

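Of 1057 values of the 7 genes under alternatives, 1017 kept their direction and their side of the threshold. Library weights called 2 of the 7 for KO against WT with a tumour, Hmgcs1 at -0.75 (limma adjusted p of 0.0492) and Sqle at -0.86 (0.0496). With those weights 813 genes were called higher and 851 lower, against 2 and 2 without, and the cause was not tested. Under the other 21 settings the smallest adjusted p of any of the 7 was 0.118.

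Direction changed for 38 values, none of them called. With library weights these were Srebf2 for KO against WT without a tumour (-0.085), Insig1 with a tumour (-0.15), the interaction of Idi1 (0.034) and Insig1 for tumour against none averaged (-0.007). Without both libraries that stood apart they were Insig1 for KO against WT with a tumour (-0.042), Lss for tumour against none in KO (-0.001) and Insig1 for tumour averaged (-0.011), and with quantile normalization the interaction of Cyp51 (0.047). Leaving out 1 library at a time, KO against WT without a tumour ranged over -0.797 to 0.05 for Sqle, -0.50 to 0.15 for Lss, -0.47 to 0.11 for Cyp51 and -0.26 to 0.32 for Srebf2. With a tumour it ranged over -0.16 to 0.36 for Insig1 and -0.55 to 0.084 for Lss, and averaged over -0.21 to 0.075 for Srebf2. Tumour against none ranged over -0.53 to 0.13 for Insig1 in WT, -0.003 to 0.46 for Lss in KO and -0.068 to 0.26 for Insig1 averaged. The interaction ranged over -0.56 to 0.032 for Hmgcs1, -0.53 to 0.31 for Sqle, -0.55 to 0.027 for Idi1, -0.46 to 0.24 for Lss, -0.29 to 0.30 for Cyp51 and -0.48 to 0.088 for Srebf2.

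The count of genes with the smaller spread in KO ranged from 3 to 7 of 7 leaving out 1 library, both without and with a tumour, and was 4 of 7 with a tumour after rescaling or quantile normalization. Over all genes tested, deviations of same-numbered libraries correlated at -0.094 to 0.1. Of the 12 libraries, 3 were closest to their own number. Replicate numbers are those of the sample titles, and the column headers number KO_no_tumor replicates 2 and 3 differently. The titles do not say whether libraries with the same number were handled together. Sqle, Insig1, Lss, Cyp51 and Srebf2 lay below the group mean in replicate 2 of all 4 groups. Hmgcs1 and Idi1 did not. How many of all genes did so was not counted. The median deviation of the 7 genes in replicate 2 was -0.095 in KO_tumor, -0.461 in WT_tumor, -0.176 in KO_no_tumor and -0.732 in WT_no_tumor. The cause was not tested. With the replicate number as a block 0 of the 7 genes were called in any comparison. The standard error for KO against WT without a tumour was then 0.241 for Sqle and 0.29 for Idi1, against 0.392 and 0.296 in the main fit. The median standard error of all genes was 0.496 for a pair of groups.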
